A study of Mus musculus with 16 samples.

Results

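The subjects here are 7 genes that encode subunits of the GABA-A receptor, Gabra2, Gabra3, Gabra4, Gabra5, Gabrb1, Gabrb2 and Gabrd. They were chosen by symbol, as 7 of the 46403 gene symbols in the files and 7 of the 19 GABA-A subunit genes listed there. All 7 passed the filter on low counts. RNA of the CA1 subfield of the hippocampus was sequenced in 16 mice, 8 in which the fragile X gene Fmr1 is knocked out (Fmr1-KO) and 8 wild-type animals (WT) whose strain is given as C57BL/6. Every animal of both groups had served as a yoked control of an active place avoidance task, in which a trained partner learns to avoid a shock zone. The labels give neither age nor sex, describe no knockout allele, and leave it unstated if both genotypes came from shared litters. Each animal label also carries a letter, B or D, whose meaning is not given, and 4 WT libraries carry each letter, as do 4 Fmr1-KO libraries. The labels also hold an animal number, 10 in all, of which 6 are carried by a B and a D library of the same genotype and none by both genotypes. Replicates are numbered here by label order.

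GABA-A receptors are chloride channels built of 5 subunits around a pore, most often alpha, beta and gamma subunits together, and they carry most fast inhibition in the brain. The alpha subunit largely sets where a receptor sits and which drugs it binds. Receptors with alpha2 are enriched at synapses on the soma and axon initial segment of pyramidal cells, those with alpha5 lie mainly outside synapses and carry a tonic current that is a hallmark of CA1, and alpha4 often partners delta in extrasynaptic receptors that sense ambient GABA. The beta subunits form part of the GABA binding site and of the receptor's intracellular anchor. Lower RNA of several of these subunits has been reported in the cortex of Fmr1 knockout mice, which is the question the genotype comparison takes up for CA1.

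The libraries were shallow and uneven. Total estimated counts ran from 1480966 to 2979481 in Fmr1-KO and from 2126632 to 3275003 in 6 of the WT libraries, while WT 3 held 878484 and WT 6 held 515103. WT 3 and WT 6, both of letter B, stand apart from the rest and enter several results below, so values without them are given beside those results. Fmr1 itself averaged 58.1 ± 19.4 CPM over the WT libraries and 22.2 ± 7.08 CPM over the knockout libraries, with no overlap (CPM are TMM-normalised counts scaled to a common library size, mean ± SD, n = 8 each). The CA1 pyramidal markers summed to between 2625 and 3081 CPM in WT and between 2761 and 2956 CPM in Fmr1-KO, with Wfs1 at 730 CPM or more in every library. Of the 8 dentate granule markers, C1ql2 and Tdo2 were each at 0 in 10 of 16 libraries, Dsp in 11, and Prox1 and Stxbp6 in 2 each, while Lct, Pdzd2 and Dock10 were above 0 in every library. Of the 6 CA3 markers in the files, Iyd was at 0 in 15 libraries and Coch in 13, while Bok, Cdh24, Grik4 and Elavl2 were above 0 in every library. The CA3 list summed to between 59.8 and 162 CPM in WT and between 42.1 and 78.9 CPM in Fmr1-KO. WT 6 held that highest sum, with Grik4 at 120 CPM, and also the highest Dsp and Prox1, at 15.04 and 33.1 CPM. WT 3 held the highest sums of astrocyte markers (5300 CPM, against 1560 to 2500 CPM in the other 15 libraries), microglial markers (316 CPM) and endothelial and pericyte markers (364 CPM). Since this is bulk tissue, fewer cells of a type and less RNA per cell cannot be told apart.

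Gabra2, Gabra4 and Gabrb1 lie in 1 cluster on mouse chromosome 5 that spans 1.19 Mb (GRCm38, GENCODE M21). Gabra2 occupies chr5:70957597-71095849 on the minus strand, and Gabra4 follows at chr5:71569749-71658308 on the same strand. Gabrb1 runs the other way, on the plus strand at chr5:71658113-72149037, so that the 5′ ends of Gabra4 and Gabrb1 overlap by 196 bases. The strand setting of the counting is not given in the sources used here, so reads from the overlap cannot be told apart. The other members lie apart from this cluster. Gabra5 is at chr7:57407672-57510059 on the minus strand, Gabrb2 at chr11:42419757-42629028 on the plus strand and Gabrd at chr4:155384980-155398112 on the minus strand. Gabra3 lies on chromosome X, as Fmr1 does, at chrX:72432681-72656848 on the minus strand, 3.71 Mb from Fmr1.

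Windows at the start of Gabra4 and at an upstream and a downstream start of Gabrb1 are shown. Nearly all Gabrb1 counts were assigned to the transcript that begins at the downstream start. The upstream Gabrb1 window follows a RefSeq start and ends at 71657970, before the GENCODE start of Gabrb1 at 71658113. It therefore does not hold the overlap with Gabra4, and the Gabra4 window, which begins at 71658259, holds only part of that overlap. The 300-base windows are those of RefSeq on GRCm38.p6, 250 bases before to 50 after an annotated start, read 5′ to 3′ on the strand of the gene. Capitals mark a GC box (GGGCGG, here as its reverse complement CCGCCC) in the Gabra4 window and the core of the NRF-1 motif (GCGCATGC, which matches on both strands with an overlap) in the downstream Gabrb1 window.
Gabra4, chr5:71658259-71658558, minus strand: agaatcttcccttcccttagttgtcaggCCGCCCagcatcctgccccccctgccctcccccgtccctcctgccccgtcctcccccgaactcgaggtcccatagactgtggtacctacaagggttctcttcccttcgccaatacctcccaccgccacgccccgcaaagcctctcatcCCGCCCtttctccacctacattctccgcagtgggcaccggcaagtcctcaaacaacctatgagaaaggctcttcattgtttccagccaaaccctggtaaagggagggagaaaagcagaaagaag
Gabrb1 upstream start, chr5:71657671-71657970, plus strand: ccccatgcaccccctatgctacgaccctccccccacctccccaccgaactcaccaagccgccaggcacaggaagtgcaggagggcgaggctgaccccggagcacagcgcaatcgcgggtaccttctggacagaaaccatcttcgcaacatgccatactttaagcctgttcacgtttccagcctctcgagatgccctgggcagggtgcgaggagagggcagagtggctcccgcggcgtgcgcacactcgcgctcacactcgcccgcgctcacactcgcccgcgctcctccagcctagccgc
Gabrb1 downstream start, chr5:71699682-71699981, plus strand: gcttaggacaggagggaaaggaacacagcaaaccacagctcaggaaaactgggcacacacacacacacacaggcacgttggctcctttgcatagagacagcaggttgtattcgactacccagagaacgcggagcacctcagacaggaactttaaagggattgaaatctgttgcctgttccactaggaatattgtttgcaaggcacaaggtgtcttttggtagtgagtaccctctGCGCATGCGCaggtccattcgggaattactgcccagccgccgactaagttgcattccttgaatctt
The upstream Gabrb1 window held 66% G and C and none of the 5 motifs searched, the downstream window held 50.3%, and the Gabra4 window held 58.7%. The motifs, searched on both strands, were TATAAA, the cAMP response element TGACGTCA, the Egr site GCGTGGGCG, GCGCATGC and GGGCGG. They occur in 13.6%, 1.79%, 0.612%, 2.71% and 35.7% of the 32851 mouse windows of that length. RefSeq windows were matched for 6 of the 7 genes, 10 windows in all. TATAAA was found in 1 window of Gabrb2 and in both overlapping windows of Gabra3. The GC box was found in the windows of Gabra2 and Gabra4 and in the same Gabrb2 window as TATAAA. A match of letters is a description and shows no binding.

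Per unit of transcript length, Gabra5 was the most abundant of the 7 genes in CA1. TPM, a relative abundance scaled for transcript length, served for every comparison of levels between genes, and each gene's share of the summed TPM of the 7 was averaged over the 16 libraries. Gabra5, which encodes alpha5, took 40.1% ± 6.40 (SD, n = 16). Gabrb2, which encodes beta2, followed with 21.1% ± 3.48, then Gabra4 (alpha4) with 12.1% ± 3.14 and Gabrb1 (beta1) with 10.8% ± 6.31. Gabra2 (alpha2) took 8.01% ± 1.45, Gabra3 (alpha3) 4.75% ± 2.01 and Gabrd (delta) 3.14% ± 1.76. The 7 genes made up 49.0% ± 4.29 of the TPM of all 19 subunit genes in WT and 45.0% ± 2.89 in Fmr1-KO (n = 8 each), and the ranges overlapped, 42.5% to 57.3% and 38.7% to 47.6%. These shares and the order below are descriptions and were not tested.

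Neighbours in this order were set against each other within each library. Gabra5 exceeded Gabrb2 in 16 of 16 libraries, by 0.93 ± 0.29 on the log2 TPM scale (mean ± SD). Gabrb2 exceeded Gabra4 in 15 of 16, by 0.81 ± 0.59. Both steps were larger than their spread between libraries. The next genes could not be ordered: Gabra4 exceeded Gabrb1 in 11 of 16 libraries, with a difference of 0.27 ± 0.69, and Gabrb1 exceeded Gabra2 in only 7 of 16, with 0.31 ± 0.75. Gabra2 exceeded Gabra3 in 14 of 16, by 0.84 ± 0.57, and Gabra3 exceeded Gabrd in 14 of 16, by 0.74 ± 0.74, a step as large as its spread. The order of all 7 was the same without WT 3 and WT 6, and also when estimated counts were divided by the length of the longest protein-coding transcript. When only protein-coding transcripts were counted, 3 of the 7 genes kept their rank, Gabrb1 with 11.9% moved ahead of Gabra4 with 10.9%, and Gabra3 with 4.78% ahead of Gabra2 with 4.15%.

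**Figure D1:**
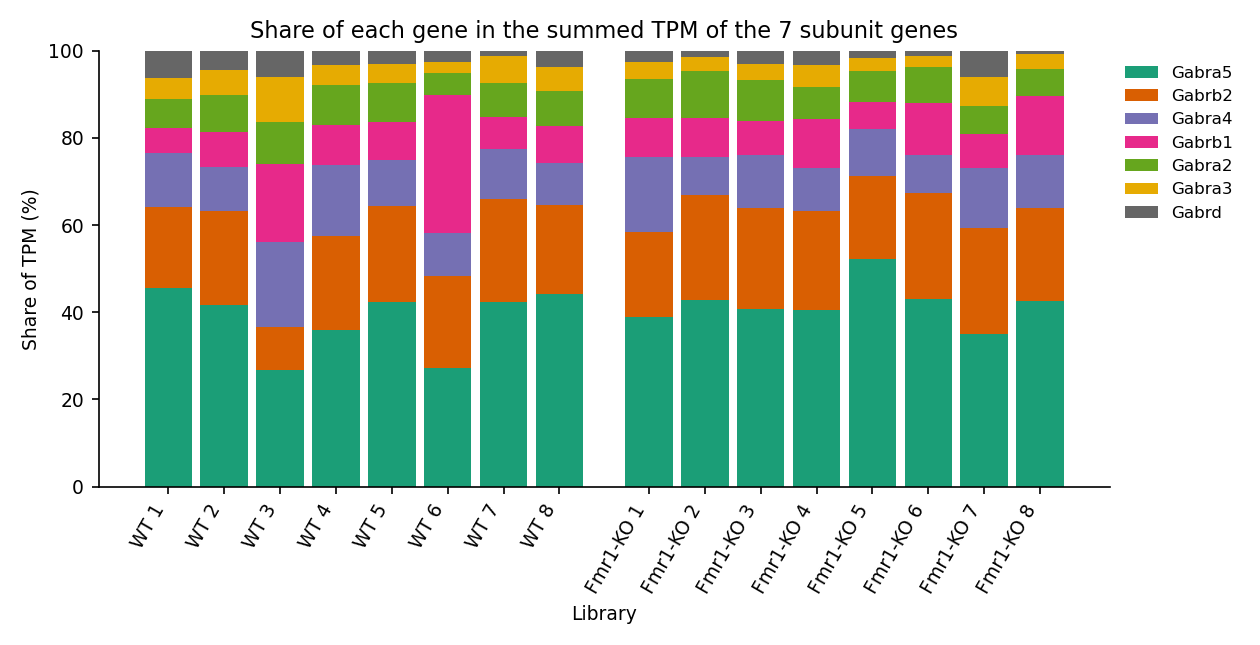
Stacked bars give the share (percent) of each of the 7 genes in their summed TPM, 1 bar per library, WT on the left and Fmr1-KO on the right. Gabra5 is the largest block in each bar but that of WT 6, where Gabrb1 reaches 31.6%, and WT 3 shows the smallest Gabrb2 block, 9.95%.

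The order of the mean shares was the same in both genotypes over all libraries, but in WT without WT 3 and WT 6 Gabra2, at 8.15% ± 0.957, stood above Gabrb1. Gabra5 took 38.2% ± 7.49 of their TPM in WT and 42.0% ± 4.86 in Fmr1-KO (SD, n = 8 each). That gap came from WT 3 and WT 6, since the other 6 WT libraries averaged 42.0% ± 3.30. Gabrb1 took 12.1% ± 8.69 in WT and 9.51% ± 2.47 in Fmr1-KO, and 7.87% ± 1.22 in the other 6 WT libraries, so the side on which it was larger turned when WT 3 and WT 6 were left out. Gabrb2 took 19.9% ± 4.25 and 22.3% ± 2.11, Gabra4 12.5% ± 3.57 and 11.7% ± 2.84, and Gabra2 7.93% ± 1.5004 and 8.08% ± 1.504. Gabra3 took 5.58% ± 2.27 in WT and 3.92% ± 1.38 in Fmr1-KO, with 5.29% ± 0.73 in the other 6 WT libraries. Gabrd took 3.79% ± 1.72 in WT and 2.48% ± 1.64 in Fmr1-KO. Among the 4 alpha genes alone, Gabra5 held 59.5% ± 8.53 in WT and 63.8% ± 5.31 in Fmr1-KO, and Gabra3 held 8.57% ± 3.15 and 6.03% ± 2.35.

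None of the 7 genes differed between the genotypes past the threshold. In edgeR, with p values adjusted by Benjamini-Hochberg over 11515 genes, 0 of 7 had an adjusted p under 0.05, and the adjusted p values ran from 0.617 to 0.980. Over all genes tested 0.0174% were called, that is 2 genes, and a count of 0 among 7 does not set them apart from that background. At an unadjusted p under 0.05 there was 1 of the 7, Gabra3, against 7.89% of all genes. DESeq2 and limma-voom also called 0 of 7. The fold change of Fmr1-KO over WT was above 0 on the log2 scale for 4 genes and below 0 for 3, with a median of 0.02, beside −0.01 for all genes tested. The CPM values of the genotypes overlapped for all 7, while 0.0434% of all genes tested, 5 genes, showed no overlap.

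**Figure D2:**
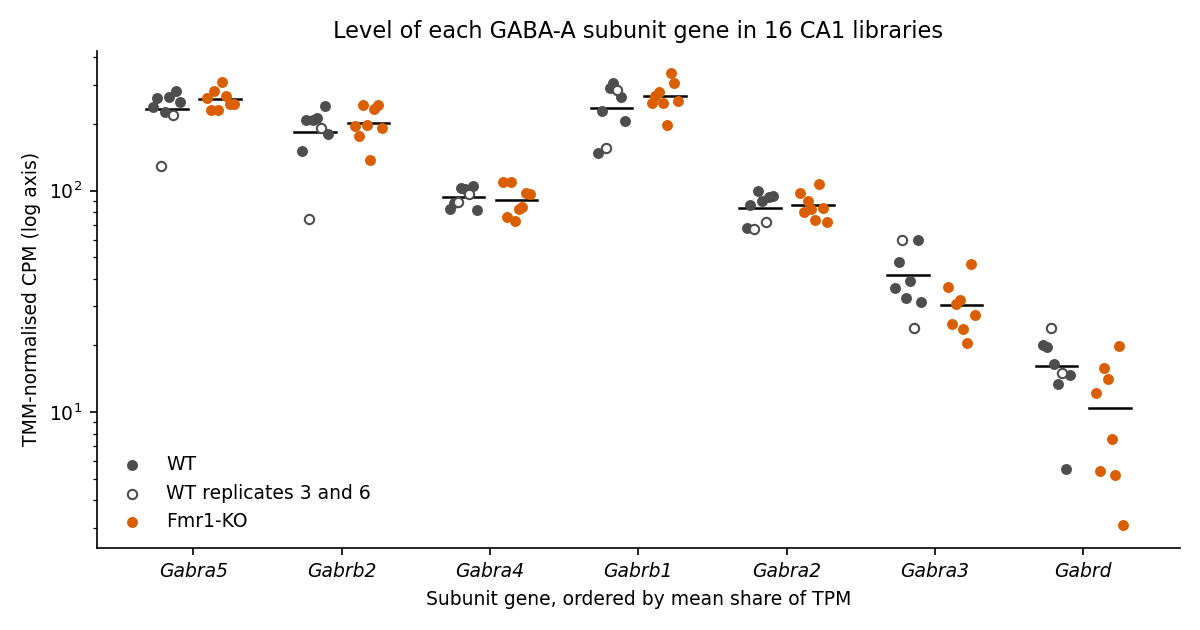
Points give the TMM-normalised CPM (log axis) of each gene in each library, WT in grey with WT 3 and WT 6 as open circles, Fmr1-KO in orange, and horizontal lines the mean of 8 libraries. CPM is not scaled for length, so heights compare libraries within a gene only; the genotypes overlap for each gene, and WT 3 is the lowest point of Gabra5 and of Gabrb2.

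Gabra5, the alpha subunit of the tonic current of CA1 pyramidal cells, ran from 128 CPM (WT 3) through a median of 244 to 281 CPM in WT, and from 230 through 255 to 308 CPM in Fmr1-KO. The Fmr1-KO libraries lay above the WT median in 6 of 8, and the groups overlapped. The log2 fold change was 0.14 (SE 0.12, edgeR adjusted p = 0.792), with a 95% interval from −0.10 to 0.38. Without WT 3 it was 0.06, and without WT 3 and WT 6 it was 0.03. WT 3, the lowest library, also held the highest sums of astrocyte, microglial and endothelial markers, and their part in its Gabra5 and Gabrb2 values was not tested. The interval corresponds to a change between −6.84% and 30.2%.

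Gabra2, the alpha subunit of synapses on the soma and axon initial segment, ran from 67.2 (WT 3) through 88.2 to 99.4 CPM in WT and from 72.3 through 82.9 to 107 CPM in Fmr1-KO. The groups covered nearly the same range. Its log2 fold change was 0.02 (SE 0.11, edgeR adjusted p = 0.980), with a 95% interval of −14.2% to 19.1%. Gabra4, the usual partner of delta, ran from 81.3 through 92.6 to 105 CPM in WT and from 72.9 through 90.4 to 109 CPM in Fmr1-KO. Here the Fmr1-KO range enclosed the WT range, with 2 libraries below it and 2 above. Its log2 fold change was −0.03 (SE 0.11, edgeR adjusted p = 0.960), and the 95% interval of −16.3% to 14.1% is the narrowest of the 7 in percent. The sign of values this close to 0 changed with the setting for both genes.

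Gabra3, whose subunit is best known from thalamic reticular and monoaminergic neurons, was the member with the smallest p. In WT it stood at 36.4, 47.7, 60.03, 32.9, 39.3, 24.1, 59.5 and 31.4 CPM in replicates 1 to 8. In Fmr1-KO it stood at 36.6, 25.0, 30.9, 32.0, 23.7, 20.4, 46.4 and 27.3 CPM. WT 3 and WT 7 were the highest and Fmr1-KO 6 the lowest, 7 of 8 Fmr1-KO libraries lay below the WT median, and the groups overlapped. The WT mean was 41.4 ± 13.2 CPM and the Fmr1-KO mean 30.3 ± 8.29 CPM (SD). Its log2 fold change over WT was −0.46 (SE 0.20), at an unadjusted p of 0.0279 and an edgeR adjusted p of 0.617, so it did not pass. Its 95% interval, not adjusted for the number of genes, was −45.4% to −3.74%. Within letter B the log2 fold change was −0.16 and within letter D −0.77. Without WT 3 and WT 6 it was −0.43.

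Gabrd, whose delta subunit is far more abundant in dentate granule cells than in CA1, was the sparsest member. In WT it stood at 20.04, 19.7, 24.01, 16.4, 13.5, 15.04, 5.54 and 14.7 CPM in replicates 1 to 8. In Fmr1-KO it stood at 12.2, 5.40, 15.8, 14.1, 7.54, 5.20, 19.9 and 3.08 CPM. WT 7 was low among the WT libraries, Fmr1-KO 7 was high among the Fmr1-KO libraries, and 3 of 8 Fmr1-KO libraries lay below the lowest WT value. The means were 16.1 ± 5.51 and 10.4 ± 5.96 CPM. Its log2 fold change over WT was −0.60 (SE 0.35), at an unadjusted p of 0.0968 and an edgeR adjusted p of 0.673. The 95% interval ran from −60.2% to 8.53%, the widest of the 7. These values rest on 5 to 68 estimated counts per library, for which counting error alone gives a coefficient of variation between 44.7% and 12.1%, against 11.7% to 3.32% for Gabra5 with 73 to 907 counts. Within letter B the log2 fold change was −0.41 and within letter D −0.98, and without WT 3 and WT 6 it was −0.51.

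The beta genes stood slightly higher on average in Fmr1-KO, by less than the spread between libraries. Gabrb1 ran from 148 (WT 1) through 247 to 307 CPM in WT and from 199 through 260 to 338 CPM in Fmr1-KO. WT 1 and WT 3 lay lowest, and 7 of 8 Fmr1-KO libraries lay above the WT median. Its log2 fold change was 0.18 (SE 0.14, edgeR adjusted p = 0.775), with a 95% interval of −7.32% to 39.3%. Gabrb2 ran from 74.4 (WT 3) through 200 to 240 CPM in WT and from 137 through 197 to 244 CPM in Fmr1-KO. Only WT 3 lay far from the others, and the Fmr1-KO median was below the WT median although its mean was above. Its log2 fold change was 0.13 (SE 0.16, edgeR adjusted p = 0.879), with a 95% interval of −13.3% to 38.7%, and 0.03 without WT 3.

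**Figure D3:**
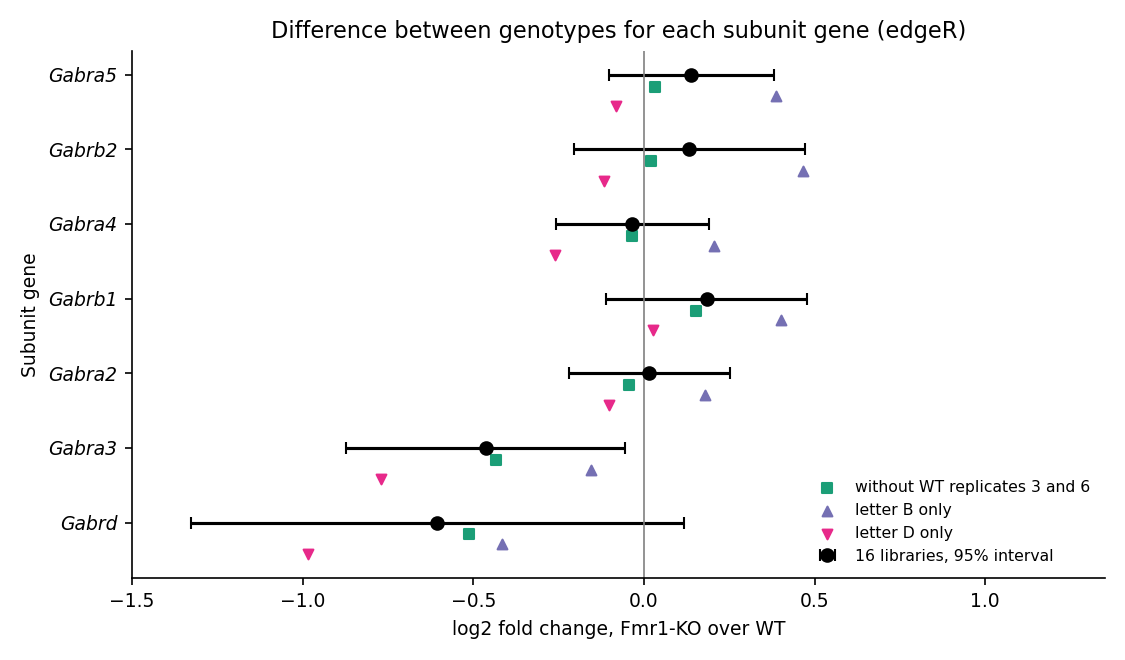
Circles give the log2 fold change of Fmr1-KO over WT from edgeR with its 95% interval (bars) for each gene over 16 libraries; squares leave out WT 3 and WT 6, and triangles use the libraries of letter B or letter D alone. The intervals of 6 genes include 0, that of Gabra3 runs from −0.87 to −0.06 before adjustment, and the letter D value lies below the letter B value for each of the 7 genes.

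The fold changes lay lower within letter D than within letter B for each of the 7 genes. These genes share their libraries, so they are not separate observations. Over all genes tested the median log2 fold change was −0.0085 within letter B and 0.0022 within letter D. Within letter B, which holds WT 3 and WT 6, the log2 fold change was 0.39 for Gabra5, 0.47 for Gabrb2, 0.40 for Gabrb1, 0.18 for Gabra2 and 0.20 for Gabra4. Within letter D the values were −0.08, −0.12, 0.03, −0.10 and −0.26. Gabra5, Gabrb2, Gabra2 and Gabra4 thus stood on opposite sides of 0 in the 2 letters. The difference itself, tested as the interaction of genotype with letter in edgeR, passed for 0 of the 7 (adjusted p of 0.907 or more) and for 0% of 11515 genes. Before adjustment the edgeR interaction lay under 0.05 for 2 of 7, Gabra4 and Gabra5 (adjusted p = 0.907 for both), and for 5.37% of all genes.

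Transcripts of the 7 genes showed no difference between genotypes past the threshold either. The files list 25 transcripts of these genes, of which 10 were tested, at least 1 for each gene. In the edgeR test over 16772 transcripts 0 of 10 were called, against 0.00596% of all transcripts, and 0 of 10 had an unadjusted p under 0.05. The smallest p, 0.0577, belonged to the main protein-coding transcript of Gabra3, Gabra3-001, with a log2 fold change of −0.45. Without WT 3 and WT 6 the count was also 0.

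For Gabra2 the division of counts between transcript types varied widely from library to library. Its only protein-coding transcript in the files, Gabra2-001 of 5852 bases, was assigned 58.3% ± 27.8 of the gene's estimated counts in WT and 69.0% ± 20.5 in Fmr1-KO. The 2 transcripts annotated as targets of nonsense-mediated decay, a pathway that degrades RNA with an early stop codon, were assigned 37.0% ± 28.5 and 26.1% ± 20.6. Single libraries ranged from 0% (WT 3) to 98.9% (Fmr1-KO 6) protein-coding. In WT 3, 94.8% went to the decay transcripts. The spread within each genotype was larger than the gap between them. The assignment was made by the quantification between transcripts that share sequence, so these are estimates and not separate measurements.

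**Figure D4:**
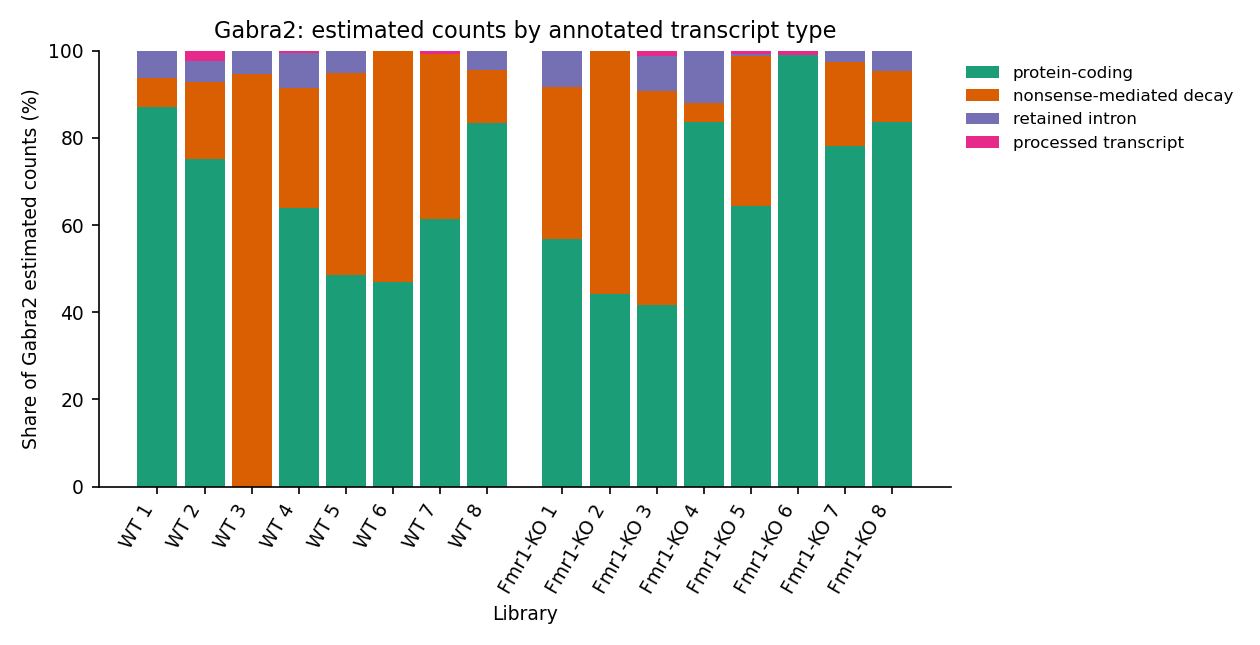
Stacked bars give the share (percent) of the estimated counts of Gabra2 assigned to each annotated transcript type, 1 bar per library. The protein-coding share runs from 0% in WT 3 to 98.9% in Fmr1-KO 6, and libraries of both genotypes fall on either side of 50%.

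The remaining genes were assigned mainly to protein-coding transcripts. Gabra4 had 93.2% ± 9.09 in WT and 87.5% ± 12.6 in Fmr1-KO, and its decay transcript Gabra4-005 reached 39.2% in Fmr1-KO 7. Gabrd-001 held 81.5% ± 18.8 of Gabrd counts in WT and 89.3% ± 12.7 in Fmr1-KO. Gabra5 has 1 transcript in the files, Gabra3-001 held 95.4% of Gabra3 counts on average and Gabrb2-001 held 98.3% of Gabrb2 counts.

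Gabrb1 shows how length enters these levels. Gabrb1-001, the transcript of 13737 bases that begins at the downstream start printed above, was assigned a median of 99.3% of the gene's counts. Gabrb1-002, of 799 bases, begins 41.8 kb upstream in the overlap with Gabra4 and was assigned a median of 0.746% of the counts. Because it is short, that small number of reads made a median of 15.1% of the TPM of Gabrb1. In WT 6, Gabrb1-002 took 17.5% of the counts and 83.3% of the TPM, and in WT 3 it took 9.23% and 70.6%. The high Gabrb1 share in these libraries thus rests on 16.7 and 11.997 estimated counts of the short transcript. In the other 14 libraries it took at most 43.4% of the TPM of Gabrb1, in Fmr1-KO 8.

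Lists of other genes of GABA signalling likewise held no gene past the threshold (edgeR, 0.0174% of all genes called). Of the 12 other subunit genes 5 were tested, with 4 log2 fold changes above 0 and 1 below and a median of 0.12. An unadjusted p under 0.05 in edgeR was found for 1 of the 5, against 7.89% of all genes tested. Of 22 genes for receptor anchoring and trafficking, 10 lay above 0 and 12 below, with a median of −0.01. Among them Rdx, which encodes radixin, the anchor of alpha5 receptors to actin, averaged 40.8 ± 16.6 CPM over WT and 30.7 ± 5.03 CPM over Fmr1-KO libraries. This is a log2 fold change of −0.40 (edgeR adjusted p = 0.628), and the spreads of the genotypes overlapped.

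For GABA synthesis, uptake and breakdown, 7 of 8 genes were tested, 1 above 0 and 6 below, with a median of −0.14 that was −0.05 without WT 3 and WT 6. Among them Slc6a11, which encodes the astrocytic GABA transporter GAT-3, averaged 68.0 ± 6.68 CPM over WT and 62.1 ± 13.2 CPM over Fmr1-KO libraries (edgeR adjusted p = 0.826). For the GABA-B receptor, the metabotropic receptor for the same transmitter, 4 of 5 genes were tested, all 4 above 0, with a median of 0.11. Its auxiliary subunits Kctd16 (a WT mean of 29.1 ± 12.98 CPM and a Fmr1-KO mean of 38.6 ± 10.7 CPM, edgeR adjusted p = 0.670) and Kctd12 (263 ± 47.4 and 302 ± 48.5 CPM, adjusted p = 0.681) had the smallest p values.

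Most marker lists had log2 fold changes mostly below 0 over all 16 libraries. This held for the CA1 pyramidal list too, with 2 above 0 and 5 below, and a median of −0.08 that was −0.02 without WT 3 and WT 6. The CA2 list had 1 gene tested, which lay above 0, and the thalamus list had 1 above and 1 below. Interneuron markers summed to between 313 and 496 CPM in WT and between 245 and 484 CPM in Fmr1-KO. Of 13 tested, 3 lay above 0 and 10 below and 0 passed, with a median of −0.35 that was −0.19 without WT 3 and WT 6. An unadjusted p under 0.05 in edgeR was found for 3 of the 13, against 7.89% of all genes tested. That count was 2 of 7 each for the CA1 pyramidal, the astrocyte, and the endothelial and pericyte markers. It was 1 of 4 for the CA3 markers and 0 for the remaining marker lists. Of the interneuron markers, Gad1 was at 51.6 CPM or more in every library, while Sst was at 0 in 2 libraries and Tac1 in 10. The dentate granule list summed to between 163 and 280 CPM in WT and between 145 and 296 CPM in Fmr1-KO, most of it Lct at 117 to 219 CPM. Of 4 tested, 1 lay above 0 and 3 below, with a median of −0.25 that turned to 0.09 without WT 3 and WT 6. For the CA3 list 1 of 4 tested lay above 0 and 3 below, with a median of −0.23 and −0.11 without WT 3 and WT 6. Astrocyte markers lay below 0 for 7 of 7 (median −0.32, and −0.08 without WT 3 and WT 6). The median of their summed CPM went the other way, at 1933 in WT and 2208 in Fmr1-KO, while WT 3 alone held 5300. Oligodendrocyte markers lay below 0 for 8 of 8 (−0.40, and −0.38 without WT 3 and WT 6) and microglial markers for 6 of 6 (−0.34, and −0.26 without them). Endothelial and pericyte markers lay below 0 for 7 of 7 (−0.50, and −0.27 without WT 3 and WT 6), and 0 of the genes of these 4 lists passed. The part of these cell types in the values of Gabra3 and Gabrd was not tested.

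The 7 genes varied together only in part across libraries. Over the 14 libraries other than WT 3 and WT 6, with each genotype centred on its mean log2 CPM, Spearman's rho was highest for Gabrb1 and Gabrb2 (0.79) and next for Gabra4 and Gabrb2 (0.62). Gabra4 and Gabrb1, whose annotated 5′ ends overlap, had a rho of 0.44. Nearly all Gabrb1 counts were assigned to the transcript that begins downstream of that overlap. The part of the overlap in this rho was not tested. The lowest value was −0.23, for Gabra5 and Gabrd, and Gabra4 and Gabrd, often partners in 1 receptor, had 0.07. Among 7168 genes with a mean of at least 20 CPM, the patterns most like Gabra5 were those of Prkrir (0.96) and Anp32e (0.81), most like Gabrb2 those of Fzd3 (0.94) and Rock2 (0.92), and most like Gabra4 those of Rasgrf1 (0.92) and Slk (0.89). For Gabra2 they were Larp4b (0.94) and Usp15 (0.93), for Gabra3 Tmed8 (0.89) and Myo9b (0.85), and for Gabrd Zfp251 (0.87). The points share their libraries and depth, and the values for other genes are the highest of many.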

How the data were processed

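CA1 RNA, extracted with a Promega Maxwell kit, was sequenced by Illumina HiSeq in 16 libraries, per the labels' protocols. Tools in the submitters' processing notes are cutadapt, FastQC, kallisto and DESeq2, with no versions. Genome build, transcript index and strand setting are not given in the sources used. The deposited estimated counts are reads assigned by a probabilistic model to each of 111706 transcripts. The deposited TPM values, from the same quantification by the authors, are relative abundances that account for effective length and keep no record of depth. Transcript lengths and effective lengths were deposited too.

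Estimated counts were summed by gene symbol and rounded. The 7 symbols each cover 1 gene identifier. Genes and transcripts were fitted in edgeR 4.0.16 (quasi-likelihood F-test) in R 4.3.3, after TMM scaling and filterByExpr at its default minimum count of 10, with genotype as the only term. Adjustment was by Benjamini-Hochberg over all features tested, and the threshold was 0.05. The script was tested on simulated counts. The standard error is the log2 fold change divided by the square root of the F statistic. Levels are TMM-normalised CPM, mean ± SD. Shares and the order of genes used TPM, and Spearman correlations used log2 CPM with a prior count of 0.5. Positions came from GENCODE M21 on GRCm38, and promoter windows from RefSeq on GRCm38.p6. Counting errors cover sampling of reads only. The p-values measure the spread between libraries, each treated as independent in the main fit. The libraries carry separate animal labels, but 6 of the animal numbers in these labels are each carried by 2 libraries.

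Alternatives were DESeq2 1.42.0, limma 3.58.1 (voom with quality weights, and log2 of TPM plus 1 or 0.1), DESeq2 size factors, library totals, other filters, protein-coding transcripts only, the letter as covariate or each letter alone, WT 3 and WT 6 left out, the animal number as a random effect, and each library left out in turn. The members, the lists, the alternatives and the naming rule were chosen with earlier results of these data known. The rule took the 7 genes, Fmr1, the 2 genes of smallest p in each pathway list other than the other subunits, and the 2 genes most like each member. Not all genes so selected are named.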

Additional observations from a re-analysis of the deposited data

Results flagged for a closer look

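In 28 groups of 8 libraries (CPM and share of TPM for each gene and genotype), 5 held a library whose distance from its nearest neighbour exceeded 0.526 of the group's range, where chance gives about 1 in 20. Gabra5 was at 128 CPM in WT 3, against 220 to 281 CPM in the other WT libraries. Gabrb2 took 9.95% of the TPM of the 7 genes in WT 3, against 18.6% to 23.6% in the other WT libraries. Gabrb1 took 31.6% in WT 6, against 5.71% to 17.9%. In WT 6 the short transcript Gabrb1-002 made 83.3% of the TPM of Gabrb1, from 16.7 estimated counts. WT 3 and WT 6 had the lowest total estimated counts of the 16, at 878484 and 515103. WT 3 also had the highest summed astrocyte markers (5300 CPM, against 1560 to 2500 CPM in the other 15 libraries), microglial markers (316 CPM) and endothelial and pericyte markers (364 CPM). WT 6 had the highest CA3 markers (162 CPM, against at most 87.9 CPM elsewhere), and its endothelial and pericyte markers summed to 271 CPM. The part of depth and of these cell types in these values was not tested. In Fmr1-KO, Gabra5 took 52.1% in replicate 5, against 35.0% to 43.1%, and Gabrd took 5.91% in replicate 7, against 0.763% to 3.18%. Neither of these 2 libraries was shallow, at 2678926 and 2942425 estimated counts.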

How the results depend on the processing

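Under 31 alternatives, 0 of the 7 genes passed the threshold (adjusted p from 0.314 to 0.999), and 201 of 217 fold changes kept their sign. The other 16 changed sign, for Gabra2, Gabra4, Gabra5, Gabrb1 and Gabrb2. Gabra4 was 0.0059 with library totals, 0.20 within letter B and 0.26 in log2(TPM + 1) without a filter. Gabra2 was −0.042 without WT 3 and WT 6, −0.10 within letter D and −0.0088 in limma-voom with quality weights. Within letter D, Gabra5 was −0.081 and Gabrb2 −0.12. Gabrb1 was −0.085 in log2(TPM + 1) and −0.15 in log2(TPM + 0.1). The fold changes of the TPM fits were read relative to the median of all genes. That median lay at 0.55 and 0.62 with the filter and 0.27 without it. The p values of these 3 fits were computed before this shift, so they belong to the unshifted fold changes and not to those printed. With each library left out in turn, Gabra2 ran from −0.034 to 0.056 and Gabra4 from −0.075 to 0.010. Gabra3 and Gabrd were below 0 in each of these fits. Over all genes, 2 were called, against 5 without a filter, 6 by DESeq2, 7 by limma-voom with quality weights, and 0 in each of the 3 TPM fits; the cause was not tested. With protein-coding transcripts only, 3 of 7 genes kept their rank by TPM and Gabra2 took 4.15% of the TPM of the 7, since the decay transcripts were then left out. The orders without WT 3 and WT 6 and with protein-coding transcripts only, the shares of the other 6 WT libraries and the random effect were added after seeing the data. No paired analysis was possible because no animal number is shared between genotypes. With the number as a random effect in limma-voom (correlation within a number −0.012), Gabra2 was −0.0087, 0 of the 7 passed and 3 of all genes did. Depth limits Gabrd most, at 5 to 68 estimated counts per library.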
